A study of Mus musculus with 6 samples.

Results

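The cells described here were fibroblasts that carried transcripts of Adm or Ndufa4l2, a pair of genes known to respond to low oxygen. They were taken from single-cell gene expression libraries of the Empty vector and Bmal1 WT groups. Members were chosen by measured UMIs (unique molecular identifiers, each counting 1 captured transcript). Barcodes were kept that had 200 genes or more and no more than 20% of their UMIs from mitochondrial genes. A kept barcode was called a fibroblast with at least 1 UMI of Dcn, at least 3 of Col1a2, none of Sox10 and at most 1 of Ptprc. A fibroblast was a member when its UMIs of Adm and Ndufa4l2 summed to at least 2. The rule found 113 hypoxic fibroblasts among 271 fibroblasts and 6364 kept cells, 47 in the Empty vector library and 66 in the Bmal1 WT library. The other 158 fibroblasts, 67 and 91, are the comparison throughout. "Hypoxic" names a pattern of transcripts here, since oxygen was not measured.

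Both groups started from YUMM2.1, a mouse melanoma line with activating Braf and stabilizing β-catenin alleles and 1 lost copy of Cdkn2a, among other engineered changes. Per the study, Empty vector cells carried the vector alone and Bmal1 WT cells ectopically expressed wild-type Bmal1 (gene symbol Arntl), a transcription factor of the circadian clock. The study made such lines both with and without the endogenous Bmal1 gene, and the labels do not say which background was used. The vectors were put into the melanoma cells, so host fibroblasts would not carry them. The labels give the line as source and name no mice, age or tissue. The study's methods describe subcutaneous tumours in C57BL/6 or NSG hosts and dissociation of tumour pieces chosen without fat, fibrous or necrotic areas. Which hosts these cells came from was not stated. Each library was 1 droplet channel holding 3 samples marked by hashtag antibodies, so group and channel cannot be told apart. The remaining group, Bmal1 bHLH, was not analysed here because its deposited gene expression files were the same as the Bmal1 WT files.

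In cells short of oxygen, hypoxia-inducible factor (HIF) escapes degradation and turns on genes for glycolysis, glucose uptake, blood vessel growth and matrix remodelling. Adm encodes adrenomedullin, a secreted peptide that acts on endothelial and other cells through the receptor Calcrl paired with a Ramp protein. Ndufa4l2 encodes a mitochondrial paralogue of the respiratory chain subunit Ndufa4 and is known to dampen respiration. In tumours, fibroblasts that lie far from vessels are among the cells that switch on such genes.

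HIF binds the short DNA cores ACGTG and also GCGTG, so the 250 bases ahead of the start sites of the 7 given markers (Adm, Ndufa4l2, Lox, Mt2, Pgf, Apln and Ptx3) were searched on both strands. RefSeq windows matched 5 of the 7 markers, with 6 windows, and 3 of the 6 held a core, those of Adm, Mt2 and Pgf. The windows of Adm and Mt2 are shown because they held a core and these genes were among those with the widest gap between the hypoxic and other fibroblasts. That of Egln3, an oxygen-dependent hydroxylase that marks HIF for degradation and is itself a HIF target, is shown for the same reason. Windows without a core, such as that of Apln, are not shown, nor is that of Ero1l, which held 3 cores. The windows stand in GRCm38.p6 (RefSeq) and read 5′ to 3′ on the gene's strand, with a core or its reverse complement, CACGT for the first core and CACGC for the second, in capitals.
Adm, chr7:110627407-110627656, plus strand: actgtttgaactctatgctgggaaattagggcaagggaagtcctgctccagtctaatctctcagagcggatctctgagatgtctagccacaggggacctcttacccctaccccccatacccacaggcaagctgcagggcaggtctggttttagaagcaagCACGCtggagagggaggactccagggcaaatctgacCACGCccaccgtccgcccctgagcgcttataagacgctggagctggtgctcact
Mt2, chr8:94172368-94172617, plus strand: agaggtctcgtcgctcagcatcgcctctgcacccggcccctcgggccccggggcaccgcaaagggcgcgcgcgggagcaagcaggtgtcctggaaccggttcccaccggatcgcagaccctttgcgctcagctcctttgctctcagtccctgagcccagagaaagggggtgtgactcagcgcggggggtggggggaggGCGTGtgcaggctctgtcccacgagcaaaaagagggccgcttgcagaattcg
Egln3, chr12:54203875-54204124, minus strand: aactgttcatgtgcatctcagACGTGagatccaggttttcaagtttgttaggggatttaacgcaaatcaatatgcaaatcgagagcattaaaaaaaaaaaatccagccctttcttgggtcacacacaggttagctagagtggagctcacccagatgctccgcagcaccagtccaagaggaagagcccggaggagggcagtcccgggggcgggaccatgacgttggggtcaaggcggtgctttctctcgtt
In the Adm window CACGC began 90 and 54 bases before the start site, at positions -90 and -54. In the Mt2 window GCGTG began at -52, and in the Egln3 window ACGTG began at -229. ACGTG occurred in 16.6% of all 32851 windows of this length, GCGTG in 28.2% and either core in 38.6%, so a match is common. CACGTG, the E-box bound by Bmal1 with its partner Clock, contains ACGTG, occurred in 6.02% of all windows and was in none of these 3. These letters are a description of the windows and say nothing of binding.

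The hypoxic fibroblasts made up close parts of the fibroblasts in both libraries. Their share was 41.2% of the Empty vector fibroblasts (95% Clopper-Pearson interval 32.1 to 50.8) and 42.0% of the Bmal1 WT fibroblasts (34.2 to 50.2). The difference was 0.81 percentage points, with an interval of -11.0 to 12.4 points, so differences of up to about that size could not be seen. Fibroblasts were 2.87% of the kept Empty vector cells (2.37 to 3.43) and 6.58% of the kept Bmal1 WT cells (5.62 to 7.65). The hypoxic fibroblasts followed, at 1.18% (0.869 to 1.57) and 2.77% (2.15 to 3.51) of all kept cells, a difference of 1.58 points (0.883 to 2.38). All intervals cover counting error only, not the spread between animals or channels.

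**Figure D1:**
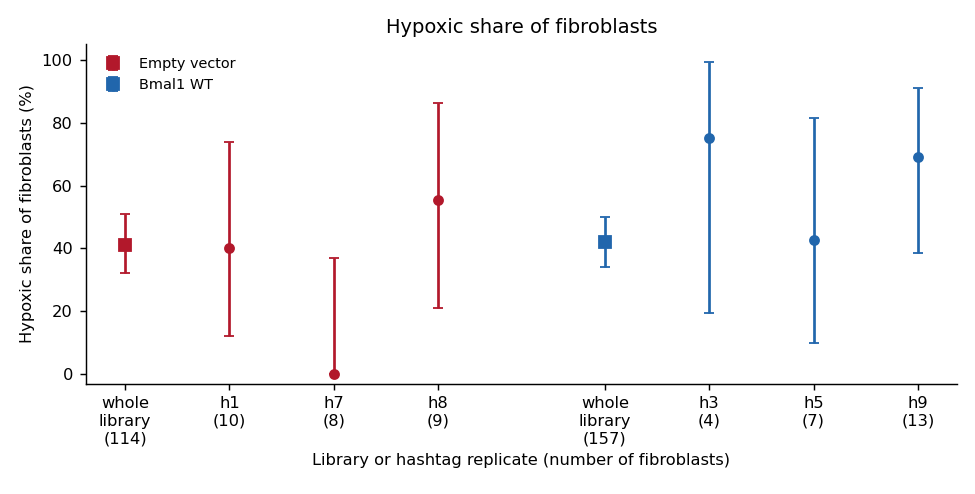
Hypoxic share of fibroblasts (percent, vertical axis) in each library and for each hashtag replicate. Error bars are 95% Clopper-Pearson intervals. The libraries lie at 41.2% and 42.0%, while hashtag replicates with 4 to 13 fibroblasts range from 0% to 75%.

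Few members could be traced to a replicate. No hashtag was called in 35 of the 47 Empty vector and 48 of the 66 Bmal1 WT members, against 9.75% and 27.7% of all kept cells. Among fibroblasts with exactly 1 hashtag, the Empty vector replicates held 4 members of 10 fibroblasts (h1), 0 of 8 (h7) and 5 of 9 (h8). The Bmal1 WT replicates held 3 of 4 (h3), 3 of 7 (h5) and 9 of 13 (h9). The mean shares were 31.9% ± 28.7 and 62.4% ± 17.1 (SD, n = 3 each). The groups overlapped, since h8 at 55.6% lay above h5 at 42.9%. The difference of 30.5 points gave p = 0.20 in a two-sided exact permutation test, where 3 against 3 cannot go below 0.10. In the other fibroblasts no hashtag was called in 44 of 67 and 82 of 91 cells, so this calling kept unequal parts of the classes and the traced shares need not match those of the libraries.

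Depth differed between the classes, and the rule needs UMIs. Median UMIs per cell were 20747 in hypoxic and 12074 in other fibroblasts of the Empty vector library, and 20634 and 21520 in the Bmal1 WT library. Only 4 and 3 hypoxic fibroblasts had under 5000 UMIs, against 24 and 17 of the others. With every fibroblast thinned to 5000 UMIs and shallower ones left out, the shares were 31.4% (27 of 86) and 27.7% (38 of 137). In the cells with 10000 to 40000 UMIs, a range set after the values were seen, they were 56.9% and 49.1%. Median mitochondrial shares were lower in the hypoxic class, 2.85% against 4.95% in Empty vector and 2.34% against 3.72% in Bmal1 WT.

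Cells outside the fibroblasts also carried these genes, at low shares. At least 2 UMIs of Adm and Ndufa4l2 were found in 49 such cells of each library, 1.27% of 3864 in Empty vector and 2.20% of 2229 in Bmal1 WT. They were found in 25 of 3221 cells with 2 or more Ptprc UMIs in Empty vector (0.776%, interval 0.503 to 1.14, median depth 5487 UMIs). In Bmal1 WT they were found in 19 of 1310 such cells (1.45%, 0.875 to 2.26, 7868 UMIs). None were found in the 52 and 124 cells with UMIs of both Sox10 and Erbb3, deeper at medians of 29358 and 41695.5 UMIs, where a count of 0 allows up to 5.77% and 2.42% by 3 counts over the number of cells, and 6.85% and 2.93% by the Clopper-Pearson interval. The remaining 24 and 30 cells were of neither class, 4.06% of 591 and 3.77% of 795, at median depths of 2185 and 2984 UMIs. Of the 24 and 30, 10 and 22 had a UMI of Dcn or Col1a2 without passing the fibroblast thresholds. The labels call the source a melanoma line, yet the Sox10 and Erbb3 cells, of neural crest type, were few and cells with Ptprc, the pan-leukocyte gene, were the majority of kept barcodes.

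The members had the genes of fibroblasts. The 10 fibroblast markers summed to 26339 and 22158 CPM in the hypoxic class (Empty vector, Bmal1 WT), 30210 and 26592 CPM in the other fibroblasts, and 647 and 623 CPM in the Sox10 and Erbb3 cells. CPM are UMIs of a gene per 1000000 summed UMIs of a class in 1 library. Dcn and Col1a2 of this list were required by the rule, so part of each sum was set by it. In members Dcn was at 6606 and 5545 CPM and Col1a2 at 3542 and 2977 CPM. Pdgfra, a receptor of fibroblasts that the rule did not use, stood at 240 and 269 CPM in members and 12.7 and 6.5 CPM in the Sox10 and Erbb3 cells. The pericyte list summed to 141 and 111 CPM against 75.1 and 77.2 CPM in the other fibroblasts. Rgs5, a pericyte gene, was at 2.83 and 1.81 CPM, and Kcnj8, Abcc9, Higd1b, Gja4 and Des, 5 of the 10 genes, were at 0, so Cspg4 and Notch3 made up most of that sum. The smooth muscle list summed to 170 and 361 CPM (112 and 116 in the others), with Myh11 at 0. The endothelial list summed to 23.6 and 51.3 CPM (31.1 and 41.8), with Pecam1 at 0, and the keratinocyte list to 11.3 and 10.3 CPM (17.4 and 20.4), with Krt5 and Krt14 at 0. The melanoma list summed to 241 and 298 CPM (368 and 411), against 2417 and 2055 CPM in the Sox10 and Erbb3 cells, with Erbb3, Mlana and Dct at 0 in members. The immune list summed to 13.2 and 9.65 CPM (18.3 and 9.71), against 7940 and 8623 CPM in the Ptprc cells. The rule limited Sox10 and Ptprc in members, and the cells set beside them were chosen by UMIs of Sox10, Erbb3 or Ptprc. The gaps of the melanoma and immune lists to those cells were thus partly fixed in advance. Other genes of the lists above were present in members. Cspg4 was at 91.6 against 53.1 CPM and 66.4 against 50 CPM in the other fibroblasts, and Notch3 at 26.4 against 16.5 and 25.3 against 18.4 CPM. In Bmal1 WT Acta2 was at 166 against 50 CPM and Tagln at 189 against 64.6 CPM, and Cdh5, an endothelial cadherin, was at 18.7 against 13.1 CPM, in 15 of 66 members. The part of pericyte, smooth muscle or endothelial RNA in the results was not tested. Melanoma cells of a mesenchymal state without Sox10 would also pass the rule, and their part was not tested.

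The genes of the rule were spread over most members. Adm gave 256 UMIs in 32 of 47 Empty vector members, with a median of 3 per cell and a highest of 39, and 239 UMIs in 48 of 66 Bmal1 WT members, with a median of 2.5 and a highest of 19. Ndufa4l2 gave 376 UMIs in 43 members and 541 UMIs in 65 members, with medians of 4 and 5 and highest values of 39 and 43. Both genes were found together in 28 of 47 and 47 of 66 members. Ndufa4l2 alone marked 15 and 18 and Adm alone 4 and 1. Per UMI, the pair correlated at a Spearman rho of 0.55 over the 271 fibroblasts, which share libraries and differ in depth. The sum of both genes per member ranged from 2 to 54 in Empty vector and from 2 to 47 in Bmal1 WT, with a median of 8 in each.

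Since the rule read these UMIs in these cells, every contrast of hypoxic with other fibroblasts below is a description without a test. A gene was counted as higher or lower when its CPM differed at least 2-fold the same way in both libraries, among genes with at least 20 UMIs over both classes in each library. Of 9031 such genes, 247 were higher, which is 2.74%, and 168 were lower, which is 1.86%. The median log2 ratio over all of them was -0.09 in each library. The balance of calls moved with the scaling, since 59.5% of calls were in the higher direction here and 70.7% and 70.5% with TMM and median-of-ratios scaling. TMM placed the median of all genes at 0.02 in Empty vector and -0.01 in Bmal1 WT, so ratios below are best read against -0.09.

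The markers given for these cells were higher in nearly every instance. Adm (chr7:110627661-110629820, plus strand, GRCm38, GENCODE M21, as for the positions that follow) stood at 242 CPM in hypoxic and 5.49 in other Empty vector fibroblasts, and at 144 and 4.37 CPM in Bmal1 WT. Ndufa4l2 (chr10:127514967-127517154, plus strand) stood at 355 and 9.15 CPM, and at 326 and 6.80 CPM. These genes set the rule, so their log2 ratios of 5.46 and 5.04 for Adm and 5.28 and 5.59 for Ndufa4l2 were fixed by it. Each has an overlapping gene on the opposite strand, Gm28863 and Shmt2, and whether counting used strand was not given in the sources used here.

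Mt2 (chr8:94172664-94173568, plus strand), a metallothionein that binds zinc and copper, was at 907 CPM against 69.6 in Empty vector and 1264 CPM against 129 in Bmal1 WT, log2 ratios of 3.70 and 3.30. It was found in 36 of 47 and 55 of 66 members, against 24 of 67 and 43 of 91 other fibroblasts. Lox (chr18:52516067-52529867, minus strand), which crosslinks collagen and elastin, was at 681 against 124 CPM and 662 against 66.5 CPM, log2 ratios of 2.46 (2.19 to 2.74) and 3.32 (3.06 to 3.58). Lox UMIs were in 40 of 47 and 55 of 66 members. The richest member held 13.7% and 21.5% of the Lox UMIs of members, and 14.6% and 21.5% of those of Mt2. Both genes were thus widespread among members and at a lower level in the rest.

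The ligands among the markers were found in fewer cells. Apln (chrX:48025146-48034853, minus strand), the ligand of the receptor Aplnr, was at 120 against 8.24 CPM and 103 against 10.2 CPM, log2 ratios of 3.86 and 3.34, with UMIs in 31 of 47 and 41 of 66 members. Pgf (chr12:85166635-85177790, minus strand), a relative of Vegfa that binds Flt1, was at 258 against 18.3 CPM and 150 against 25.2 CPM. It was in 18 and 27 members, and 1 cell held 27.5% and 24.1% of its UMIs. Ptx3 (chr3:66219910-66225805, plus strand), a secreted pattern-recognition protein, was at 153 against 34.8 CPM in Empty vector and 56.1 against 51.0 CPM in Bmal1 WT. Its log2 ratio was 2.14 (1.62 to 2.69) in the first and 0.14 (-0.28 to 0.55) in the second library, where Ptx3 did not mark the hypoxic class. One Empty vector member held 31.5% of its UMIs there. Summed, the 7 markers were at 2715 against 269 CPM and 2706 against 293 CPM. This sum holds Adm and Ndufa4l2, and all 7 were given as markers of this part, so its gap was partly set in advance.

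**Figure D2:**
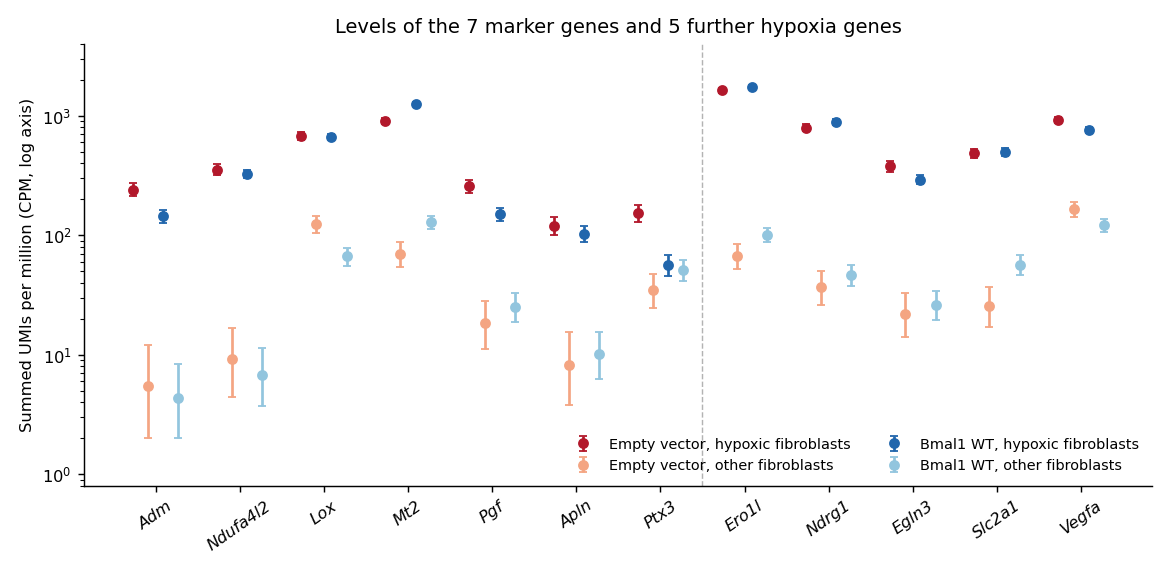
Gene levels (CPM of summed UMIs, log axis) in hypoxic and other fibroblasts of each library. The 7 markers stand left of the dashed line, and Ero1l, Ndrg1, Egln3, Slc2a1 and Vegfa stand right of it. Points are class sums and error bars are exact Poisson 95% intervals. Ptx3 in Bmal1 WT is the marker where both classes lie together, at 56.1 and 51.0 CPM.

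The enzymes of glycolysis were higher almost as a block. Of 20 measured genes of a fixed list, 18 were higher in both libraries and none lower, with a median log2 ratio of 1.84 in Empty vector and 1.59 in Bmal1 WT. Summed, the list stood at 12023 against 3631 CPM and 13341 against 4430 CPM. Slc2a1, the main glucose transporter of many cell types, was at 488 against 25.6 CPM and 499 against 56.8 CPM, log2 ratios of 4.25 and 3.13. Slc2a3, a high-affinity glucose transporter, was at 126 against 11.0 CPM and 133 against 7.28 CPM. Pgk1, which makes ATP in glycolysis, was at 1579 against 435 CPM and 1494 against 390 CPM, with UMIs in every member of both libraries. Ldha, which turns pyruvate into lactate, was at 1032 against 362 CPM and 1086 against 509 CPM.

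Hypoxia response genes outside glycolysis showed the same. Of 22 measured, 16 were higher and none lower, with medians of 2.17 and 1.89. Ero1l, an oxidase for protein folding in the endoplasmic reticulum, was at 1632 against 66.8 CPM and 1756 against 101 CPM, log2 ratios of 4.61 (4.27 to 4.97) and 4.11 (3.91 to 4.32). Ndrg1, a stress-induced gene, was at 795 against 36.6 CPM and 888 against 46.6 CPM. Egln3 was at 378 against 22 CPM and 293 against 26.2 CPM, log2 ratios of 4.10 and 3.48. Bnip3, a receptor for removal of mitochondria, was at 580 against 59.5 CPM and 548 against 89.3 CPM, and Hilpda, a lipid droplet protein, at 324 against 19.2 CPM and 353 against 44.7 CPM. Egln1, like Egln3 a hydroxylase that marks HIF for degradation and counted in the same list, was at 480 against 107 CPM and 490 against 128 CPM, log2 ratios of 2.17 and 1.94. The separate oxygen sensing list held the HIF subunits, Egln2, Vhl and Hif1an, and none of its 6 measured genes passed 2-fold in both libraries. Hif1a was at 371 against 265 CPM and 407 against 184 CPM, log2 ratios of 0.48 and 1.14.

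Part of the pattern was shared with the Sox10 and Erbb3 cells and part was not. Ero1l was at 1589 and 995 CPM there, Slc2a1 at 232 and 249 CPM, Pgk1 at 1453 and 1255 CPM and Bnip3 at 527 and 468 CPM. Egln3 was at 17 and 12 CPM, Lox at 0.289 and 0.130 CPM, Mt2 at 0 and 0.260 CPM, and Ndufa4l2 at 0 in both. The 7 markers summed to 10.4 and 7.02 CPM in these cells and to 30.2 and 76.7 CPM in the Ptprc cells. Summed, the glycolysis list stood at 12519 and 12918 CPM in the Sox10 and Erbb3 cells, close to the 12023 and 13341 CPM of members, and the hypoxia list at 6562 and 6351 CPM against 9616 and 9761 CPM in members. The marker genes were thus near 0 in these cells, while the glycolysis list was at the level of the members.

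Both gene lists had higher medians in bins of fibroblasts with more UMIs of the rule, on both sides of its threshold. Glycolysis had a median of 28.9 UMIs per 10000 in the 51 Empty vector fibroblasts with no UMI of Adm or Ndufa4l2, 44.6 in the 16 with 1, 56.4 in the 15 with 2 to 4, 121 in the 12 with 5 to 12, and 157 in the 20 with 13 or more. In Bmal1 WT the medians were 31.6 in 68 cells, 43.5 in 23, 83.2 in 14, 127 in 29 and 197 in 23. The hypoxia list went from 25 to 113 UMIs per 10000 and from 24.9 to 140. Just outside the rule, cells with 1 UMI had summed glycolysis levels of 4676 and 4193 CPM. Just inside it, the 8 and 7 cells with 2 UMIs had 5557 and 5238 CPM. The classes overlapped little at their centres. In Empty vector, 2 of 67 other fibroblasts lay above the hypoxic median of 123 per 10000, and 3 of 47 members lay under the other median of 34.2. In Bmal1 WT, 5 of 91 lay above 136 and 2 of 66 under 32.1.

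**Figure D3:**
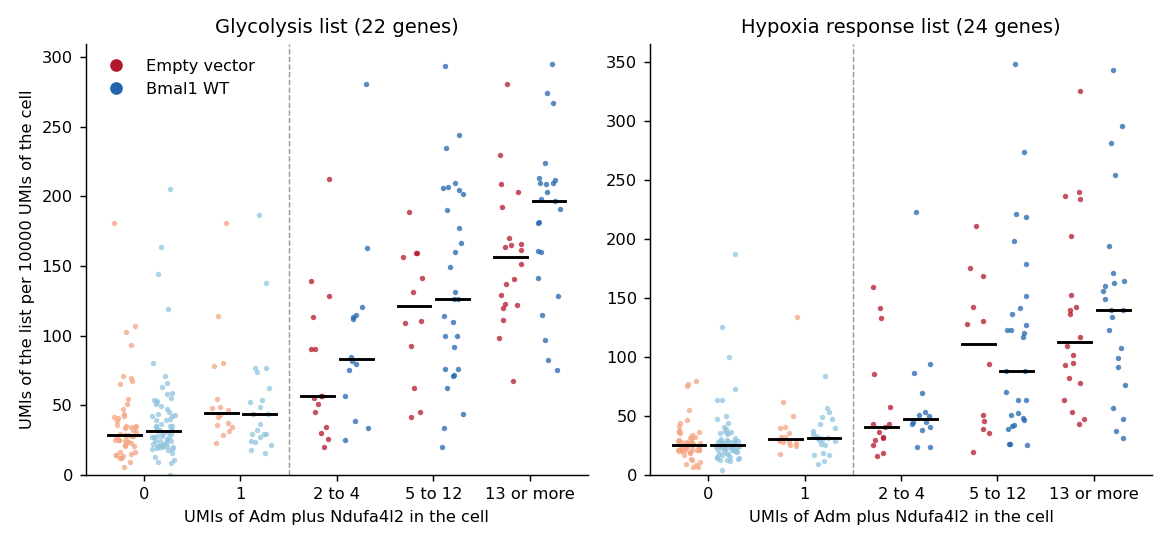
Summed genes of the glycolysis and hypoxia response lists (UMIs per 10000 UMIs of the cell) against the UMIs of Adm plus Ndufa4l2 in bins, by library. Dots are cells, black bars are medians, and the dashed line is the threshold of the rule. Glycolysis medians run from 28.9 to 157 in Empty vector and from 31.6 to 197 in Bmal1 WT.

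By rank correlation over the 271 fibroblasts, with each gene and the rule's sum taken per 10000 UMIs, the genes most like Adm plus Ndufa4l2 among 4942 were Bnip3 (Spearman rho 0.70), Eno1 (0.67), Pgk1 (0.66), Egln3 (0.66) and Ndrg1 (0.66). Least like it were mt-Cytb (-0.52), Fbn2 (-0.50), mt-Atp6 (-0.50), mt-Nd4 (-0.50) and Lum (-0.46). The cells share 2 libraries and differ in depth, and no p is given. Eno1 and Pgk1 among the most alike are enzymes of glycolysis, and 3 of the 5 least alike are genes of the mitochondrial genome.

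Genes of the respiratory chain encoded in the nucleus had ratios slightly under those of all genes. Of 16 measured, 15 were lower by any size in both libraries, against 42.4% of all 9031 genes, with medians of -0.31 and -0.30. With TMM scaling 11 were lower, against 32.9% of all genes, with medians of -0.19 and -0.22, and with median-of-ratios scaling 10. None was lower by 2-fold. Ndufa4, the subunit that Ndufa4l2 resembles, was at 134 against 195 CPM and 150 against 189 CPM, log2 ratios of -0.54 (-0.86 to -0.23) and -0.34 (-0.57 to -0.10). Cox4i2, a hypoxia-associated form of a cytochrome oxidase subunit that is also on the pericyte list, was the exception at 18.9 against 0.915 CPM and 13.9 against 1.46 CPM, from 20 and 23 UMIs in members. Its partner form Cox4i1 was at 577 against 579 CPM and 617 against 633 CPM.

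Angiogenic ligands and their receptors were mixed. Of 15 measured, 3 were higher, Vegfa, Angptl4 and Calcrl, and none lower. Vegfa, the leading growth factor of vessels, was at 924 against 165 CPM and 762 against 121 CPM, with UMIs in 44 of 47 and 64 of 66 members. Calcrl, the receptor of the peptide that Adm encodes, was at 558 against 213 CPM and 378 against 165 CPM, log2 ratios of 1.39 (1.17 to 1.61) and 1.20 (1.01 to 1.39). Ramp1, its partner in the receptor for CGRP, was lower at 18.9 against 37.5 CPM and 16.3 against 37.9 CPM, and Ramp2, its partner for adrenomedullin, was at 20.8 against 26.5 CPM and 19.9 against 21.4 CPM. Members thus carried both ligand and receptor transcripts while the Ramp2 counts, 22 and 33 UMIs, were low.

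Matrix genes were little different as a group. Of 26 measured collagens and matrix genes, 4 were higher, among them Col12a1, Fbln2 and Cyr61, and none lower, with medians of 0.11 and 0.01. Col12a1, a collagen that sits on fibrils, was at 55.7 against 0.915 CPM and 74.8 against 6.80 CPM, in 11 and 26 members. Fbln2, a matrix glycoprotein, was at 328 against 52.2 CPM and 425 against 82.0 CPM, with 39.1% and 16.3% of its UMIs in members in 1 cell of each library. Lum, a collagen-binding proteoglycan, was at 2240 against 3750 CPM and 1486 against 2921 CPM, log2 ratios of -0.74 (-0.82 to -0.67) and -0.98 (-1.04 to -0.91), close to but not past the 2-fold line. Of the 16 crosslinking enzymes and proteases, Mmp3 and Plau were higher, with all of Mmp3's UMIs in members in 1 cell of each library.

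Metallothioneins, stress and inflammatory genes stood out in part. Mt1, a close relative of Mt2, was at 1186 against 61.3 CPM and 1505 against 509 CPM, where 1 other fibroblast of Bmal1 WT held 59.3% of that class's UMIs. Of 11 genes of the unfolded protein and integrated stress responses, 4 were higher, Hspa5, Hsp90b1, Ddit3 and Nupr1. All 11 were higher by any size in both libraries, against 26.2% of all measured genes, with medians of 0.87 and 1.39. Hsp90b1, a chaperone of the endoplasmic reticulum, was at 3207 against 1131 CPM and 3740 against 1272 CPM. Of 15 inflammatory fibroblast genes, 5 were higher, Il11, Cxcl1, Cxcl12, Ccl7 and Nfkbia, and single cells held much of some. The richest member held 44.1% and 54.5% of Il11 UMIs (Empty vector, Bmal1 WT), 36.6% and 17.8% of Cxcl1 and 47.5% and 17.9% of Cxcl12. Nfkbia was spread wider, in 31 of 47 and 54 of 66 members, with 23.5% and 6.63% in the richest. Of the UMIs of Ccl7, a monocyte-attracting chemokine, 66.2% and 62.0% came from 1 member of each library. Of 11 genes of tissue dissociation and heat shock, Dusp1 alone passed 2-fold, but 9 were higher by any size in both libraries, against 26.2% of all measured genes, with medians of 0.76 and 0.89. Fos, an immediate early gene, was at 1154 against 619 CPM and 1262 against 566 CPM. None of 7 contractile genes passed 2-fold, while 6 were higher by any size in both libraries, with medians of 0.66 and 0.77. Per cell, the contractile list had medians of 39.0 against 21.1 and 48.0 against 28.1 UMIs per 10000. None of 8 steady-state fibroblast genes passed 2-fold, with medians of -0.11 and -0.26. Genes that tissue dissociation can induce thus moved with the class, and their part in the other ratios was not tested.

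Of the fixed lists, the cell cycle list was the only one with members lower by 2-fold in both libraries. Of 13 measured genes, 10 were lower and none higher, with medians of -1.62 and -2.08. These sums rested on few cells. In Empty vector 1 other fibroblast held 62.5% of that class's UMIs of Top2a, a topoisomerase of dividing cells, and 46.7% of those of Mki67. Per cell, the median of the list in Empty vector was 0.66 UMIs per 10000 in hypoxic and 0.43 in other fibroblasts, with 16 of 47 and 30 of 67 cells at 0, the opposite order to the sums. In Bmal1 WT it was 0.52 and 0.70, with 23 of 66 and 29 of 91 at 0. Mki67, a proliferation marker, was at 12.3 against 54.9 CPM and 33.2 against 131 CPM, found in 3 of 47 and 5 of 66 members against 5 of 67 and 14 of 91 other fibroblasts. In the cells with 10000 to 40000 UMIs the count of lower members was 3, and the log2 ratios of Mki67 were -0.18 in Empty vector and -1.26 in Bmal1 WT, so depth moved with this result. Outside the list, H19, a fetal noncoding RNA, was at 12.3 against 135 CPM and 10.3 against 38.8 CPM, and Lepr, the leptin receptor, at 5.66 against 41.2 CPM and 16.9 against 58.3 CPM.

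Interferon-stimulated genes, a list added after values were seen, were higher in members as well, from a minority of them. Of 16 measured genes 10 were higher and none lower, with medians of 1.30 and 2.90. Rsad2, an antiviral enzyme, was at 179 against 15.6 CPM and 198 against 3.88 CPM, from 10 of 47 and 20 of 66 members. Isg15, a ubiquitin-like protein, was at 266 against 97.0 CPM and 255 against 17.5 CPM. More than 20 UMIs per 10000 of the list were found in 19 of 47 (40.4%) and 21 of 66 (31.8%) members, and in 12 of 67 (17.9%) and 4 of 91 (4.4%) other fibroblasts. The top 5 members held 48.5% and 44.1% of these UMIs. Across the 5 bins of rule UMIs, from 0 to 13 or more, the median of the list in Empty vector was 5.09, 4.38, 5.89, 5.93 and 22.8 per 10000. In Bmal1 WT it was 2.01, 1.54, 4.80, 10.5 and 5.95. Of the Empty vector members with 2 to 4, 5 to 12 and 13 or more rule UMIs, 13.3%, 41.7% and 60% had over 20 per 10000. The same bins of Bmal1 WT members had 28.6%, 34.5% and 30.4%. The share was thus higher in bins with more rule UMIs in Empty vector, and close among the bins in Bmal1 WT.

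**Figure D4:**
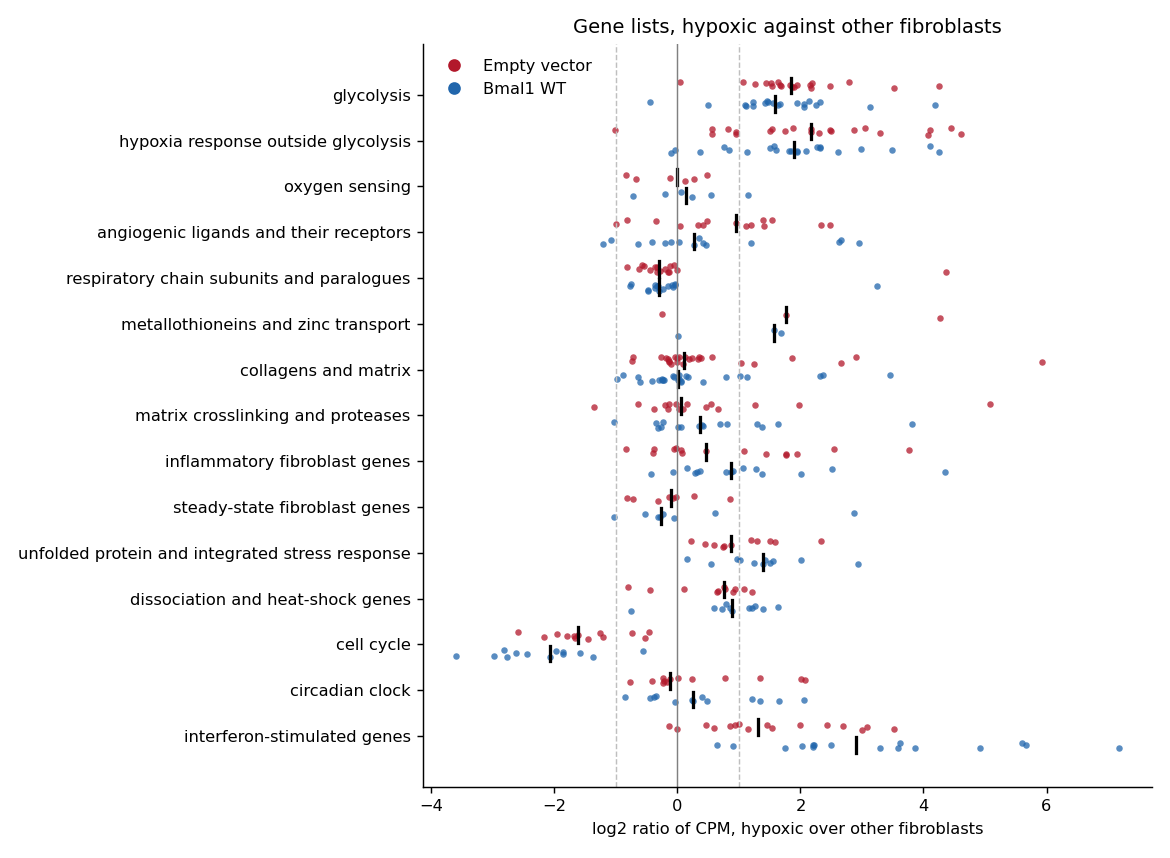
Log2 ratio of hypoxic over other fibroblasts for each measured gene of the lists, by library. Dots are genes, with a class at 0 placed at the bound from a floor of 3 counts, black bars are list medians and dashed lines mark 2-fold. Glycolysis and hypoxia medians lie between 1.59 and 2.17, the cell cycle medians at -1.62 and -2.08.

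Clock genes were looked at because the study varied Bmal1 in the melanoma cells. Arntl, which encodes Bmal1, was at 55.7 CPM in the Sox10 and Erbb3 cells of Empty vector (48.2 to 64.2) and 71.6 CPM in those of Bmal1 WT (65.8 to 77.9). In hypoxic fibroblasts it was at 67.0 and 56.1 CPM and in other fibroblasts at 26.5 and 42.7 CPM, ratios of hypoxic over other of 1.34 (0.69 to 2.01) and 0.39 (-0.04 to 0.83) on the log2 scale. Of 13 measured clock genes 2 were higher in both libraries, Nfil3 and Rora. Rora, a nuclear receptor that activates Arntl, was at 301 against 75.1 CPM and 235 against 56.3 CPM. Nfil3, a repressor in the clock's accessory loop, was at 50.03 against 11.9 CPM and 44.0 against 14.1 CPM. A 3' library counts the end of transcripts, and whether it reads the ectopic construct was not given in the sources used here.

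Hypoxic fibroblasts of Bmal1 WT were then set against those of Empty vector. With 1 channel a group there was no test, and ratios carry counting intervals only. Of 9423 genes with at least 20 UMIs over both libraries, 281 were at least 2-fold higher in Bmal1 WT, which is 2.98%, and 254 lower, which is 2.7%, with a median log2 ratio of 0.00. In the other fibroblasts 390 of 9957 genes were higher, which is 3.92%, and 322 lower, which is 3.23%. The program that marks the members differed little. None of 21 glycolysis genes and none of 23 hypoxia genes passed 2-fold in either direction, with medians of 0.11 and 0.03. Adm itself was at 242 and 144 CPM, a log2 ratio of -0.75 (-1.01 to -0.49), and Ndufa4l2 at 355 and 326 CPM, -0.12 (-0.31 to 0.07). Of the markers only Ptx3 passed 2-fold, at 153 and 56.1 CPM.

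Genes of MHC class I and peptide loading, a list added after values were seen, were lower in Bmal1 WT. Of 14 measured, 11 were lower by at least 2-fold and none higher, with a median log2 ratio of -1.12. H2-K1, a class I heavy chain, was at 1758 CPM (1863 UMIs) in Empty vector and 443 CPM (735 UMIs) in Bmal1 WT, a log2 ratio of -1.99 (-2.11 to -1.86). H2-K1 was detected in 47 of 47 and 62 of 66 members, with medians of 28 and 6 UMIs a cell. B2m, the light chain, was at 3067 and 1376 CPM, and Tap1, which carries peptides, at 166 and 78.4 CPM. The class I genes resemble each other in sequence, so counts may be split among them. The other fibroblasts showed 10 of 14 lower, with a median of -1.22, so the difference was seen in both classes. H2-K1 was at 3092 and 2274 CPM in the Ptprc cells and at 629 and 347 CPM in the Sox10 and Erbb3 cells of Empty vector and Bmal1 WT. The lists of both classes were read in the same 2 channels, so group and channel cannot be told apart.

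Inflammatory fibroblast genes were lower in Bmal1 WT too. Of 16 measured, 9 were lower by at least 2-fold, among them Cxcl1, Cxcl5, Cxcl12, Ccl2, Ccl7 and C3, and 1 was higher, Cxcl2, with a median of -1.09. Ccl2, a monocyte-attracting chemokine, was at 1196 and 523 CPM in members, with 46.3% and 46.6% of its UMIs in 1 cell of each library. In the other fibroblasts 8 of 16 were lower. Interferon-stimulated genes gave other counts in each class. In members 1 of 16 was higher and none lower, with a median of -0.15, whereas in other fibroblasts 10 of 13 were lower, with a median of -1.57. The difference between these contrasts was not tested.

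Many of the widest gaps rested in large part on single cells. Of the 10 genes furthest above Empty vector, Serpinb2, a serpin, had 90 of 92 UMIs in 1 Bmal1 WT member. Another member of Bmal1 WT held 104 of 227 UMIs of Hspa1b, 52 of 138 of Hspa1a and 52 of 118 of Hspb1, genes of the heat-shock response whose first pair are near-identical copies. Yet another held 207 of 474 UMIs of Cxcl10. Among the 10 genes furthest below, all 56 UMIs of Dpt and 54 of Ly6c1 in Empty vector came from 1 member of 35523 UMIs, which also held 114 of 166 UMIs of Cilp and 109 of 190 of Ly6a. This cell had 18 UMIs of Ndufa4l2, none of Adm and 613 of Col1a2. Another Empty vector member held 99 of 182 UMIs of Ctgf, a matricellular protein. With the cell richest in each gene left out of each class, an alternative added after values were seen, the log2 ratios were 1.91 for Hspa1b, 2.41 for Cxcl10 and -1.68 for Ctgf, against 2.54, 2.24 and -2.51 with it. Genes spread over more members were Cxcr4, a chemokine receptor, at 14.2 CPM in 8 members of Empty vector and 72.4 CPM in 25 of Bmal1 WT, and Lef1, a transcription factor of Wnt signalling, at 2.83 CPM in 2 members and 28.4 CPM in 20. In the other fibroblasts Cxcr4 was at 11.9 and 9.22 CPM and Lef1 at 15.6 and 17 CPM.

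**Figure D5:**
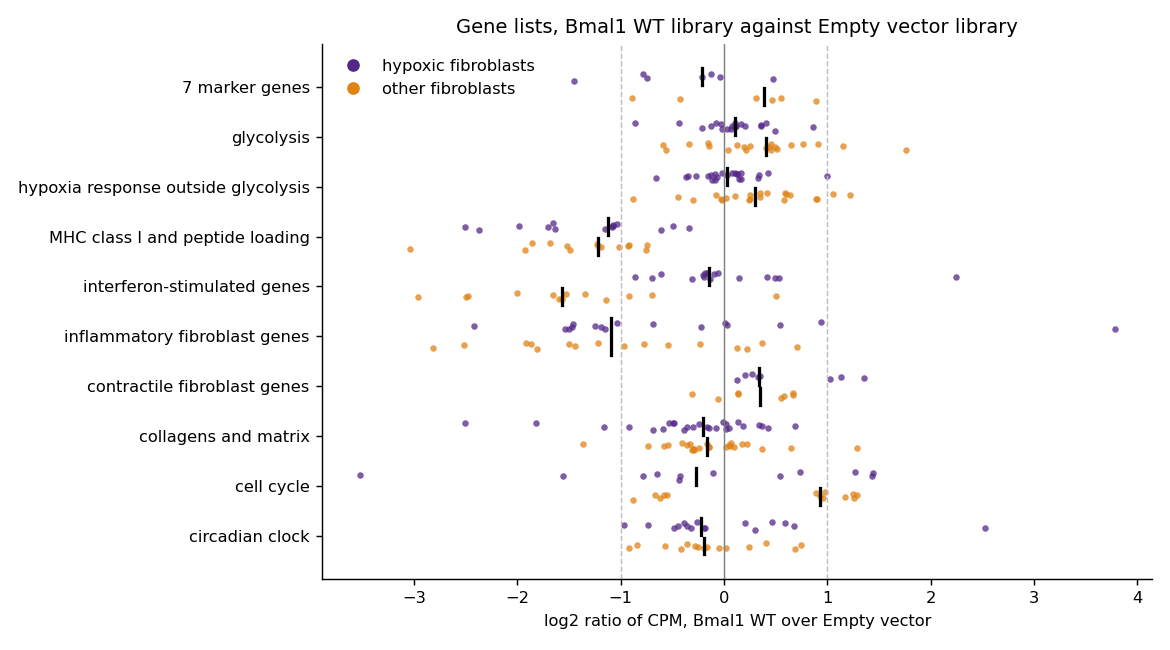
Log2 ratio of Bmal1 WT over Empty vector for each measured gene of the lists, in hypoxic and in other fibroblasts. Dots are genes, with a class at 0 placed at the bound from a floor of 3 counts, black bars are list medians and dashed lines mark 2-fold. MHC class I medians lie at -1.12 and -1.22, glycolysis medians at 0.11 and 0.41.

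The remaining lists differed in few members. Acta2, Tagln and Myl9 of 8 contractile genes were higher in Bmal1 WT, with Acta2, the smooth muscle actin, at 75.5 and 166 CPM and 44.0% of its UMIs in 1 Bmal1 WT member. Of 26 collagens and matrix genes 3 were lower, Col14a1, Cyr61 and Ctgf, and none higher. Of 11 steady-state fibroblast genes 5 were lower, Pi16, Ly6a, Ly6c1, Clec3b and Dpt, which were mostly from the 1 Empty vector member described above. Of 12 cell cycle genes 3 were higher, Mki67, Ccnb1 and Birc5, and 2 lower, Mcm3 and Rrm2, where 1 Bmal1 WT member held 20 of 55 UMIs of Mki67. With members chosen by Adm alone the log2 ratio of Mcm3 turned from -1.55 to 0.21. Of 16 clock genes 1 was higher, Hlf, and none lower. Fewer cells of a type, less RNA per cell and differences of capture cannot be told apart in class sums of this kind.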

How the data were processed

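Single cells were captured with a 10x Genomics 3' kit and hashtag antibodies, with 1 gene expression library for each of Empty vector and Bmal1 WT. Values used are UMI counts per gene and barcode, deposited by the authors as filtered matrices and made with Cell Ranger 6.1.2 per the file headers and the mm10 build per the labels. Annotation and strand use are not given in the sources used here. Libraries held 34232927 and 39561569 UMIs in 4147 and 2785 barcodes over 31053 genes. They shared 5 barcodes, none of a fibroblast. The 3 Bmal1 bHLH files equalled the Bmal1 WT files byte for byte, and 1 column of per-sample values was not mapped and not used.

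Barcodes were chosen by the thresholds given in the report, and doublets were not called, beyond the limits on Sox10 and Ptprc. Hashtags were called by a mixture of 2 Gaussians per hashtag on log counts (scikit-learn 1.9.0). UMIs were summed per class and library and divided by the class total (CPM). Ratios of 2 classes have 95% exact conditional binomial intervals, and a class at 0 was set to a floor of 3 counts. A gene was counted at 2-fold or more, without a p-value, since each group was 1 library and the rule used the same cells. The tools were Python 3.11.15, numpy 2.4.6, scipy 1.17.1, pandas 2.3.3 and, for TMM, edgeR 4.0.16 in R 4.3.3. The scripts were tested on simulated data. GENCODE M21 held 30934 of the 31053 gene identifiers, and 2 of 319 list genes, Ccn1 and Ccn2, were measured under Cyr61 and Ctgf.

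The named genes were the 7 given markers, the members of fixed lists past 2-fold in both libraries or leading their list, and the 10 furthest each way in each contrast with at least 50 UMIs and 5 CPM added. Other genes named beside them, such as Pdgfra, Ndufa4, Cox4i1, Ramp1, Ramp2, Hif1a and Arntl, were chosen for their role after values were seen. The members, lists and comparisons were chosen with earlier results of these data known. The interferon and MHC class I lists and 2 alternatives, the range of 10000 to 40000 UMIs and leaving out the cell with the most UMIs of a gene, were added after values were seen. A few items of the genotype and lists are not reported here. Other alternatives changed the thresholds, the depth, the scaling, the UMI minimum and the hashtag calling.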

Additional observations from a re-analysis of the deposited data

Results flagged for a closer look

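One gene of the lists was past 2-fold in opposite directions in the libraries. Mmp9, a gelatinase, had a log2 ratio of hypoxic over other fibroblasts of -1.36 in Empty vector, at 135 and 346 CPM, and of 1.30 in Bmal1 WT, at 47.7 and 19.4 CPM. In the other fibroblasts of Empty vector 1 cell held 64.6% of its 378 UMIs. The difference between the libraries was not tested.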

How the results depend on the processing

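The share of hypoxic fibroblasts moved with how members were chosen, while under the 12 other choices the glycolysis list had 17 or 18 and the hypoxia list 15 to 17 members higher in both libraries. Thinning to 5000 UMIs gave 31.4% in Empty vector and 27.7% in Bmal1 WT, Adm alone gave 25.4% and 26.8%, and cells with 10000 to 40000 UMIs gave 56.9% in Empty vector. The count of genes lower in the hypoxic class was 262 with Adm alone (108 shared with the 168), and without a UMI minimum the counts were 372 higher and 330 lower. For Bmal1 WT over Empty vector the counts were 712 and 680 without that minimum, and 407 lower with each cell weighing the same. The fixed lists held 236 genes found in the data, a total that includes genes under the UMI minimum. Of these, 10 were lower and 58 higher in the hypoxic class in the full set. In cells with 10000 to 40000 UMIs, 4 were lower. With Adm alone the direction turned for Hist1h2ae (0.62) and Mcm3 (0.21) and Cilp (0.43) in Bmal1 WT over Empty vector, for Hspb1 (-0.37) and Cxcl10 (-0.64) in hypoxic over other of Bmal1 WT, and for Dpt (-3.10) and Ly6c1 (-3.25) in Empty vector. The Empty vector member with all UMIs of Dpt and Ly6c1 had none of Adm, so Adm alone placed it among the other fibroblasts. The Bmal1 WT members richest in Cxcl10 (207 of 474 UMIs) and Hspb1 (52 of 118) also had none of Adm. The cause of the turns was not tested. In the hashtag comparison, leaving out each replicate gave differences from 14.6 (without h7) to 42.4 points (without h8), with exact permutation p from 0.20 to 0.40, and calling by the highest centred log count gave 5.90 points (exact permutation p = 0.70). No paired analysis was possible because the hashtag numbers are not shared between the 2 groups. Of the other results under all alternatives, 102 main and 2052 further values stayed within their error or count limits, and 338 further values did not. The main limits are 1 channel a group, 113 cells, few hashtags on fibroblasts and sums in which single cells weigh heavily.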

Other observations

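Single members carried gene sets of their own, as values without explanation. In the Empty vector library 1 member of 35523 UMIs held all 40 UMIs of Clec3b, all 66 of Mmp3, 61 of 86 of Pi16 and 22 of 23 of Has1, beside the Dpt and Ly6c1 given above. Another, of 10807 UMIs with 4 UMIs of Adm and 2 of Ndufa4l2, held 99 of 182 UMIs of Ctgf, 39 of 80 of Acta2 and 16 of 18 of Edn1, which encodes the vessel-constricting peptide endothelin. In Bmal1 WT 1 member of 47041 UMIs held 121 of 275 UMIs of Acta2 and 148 of 313 of Tagln, with 7 UMIs of Ndufa4l2 and none of Adm. Proliferation transcripts in members were also from few cells, with 24 of 31 UMIs of Top2a in 1 Empty vector member and 35 of 46 of Ube2c in 1 Bmal1 WT member.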
